A study of Mus musculus with 26 samples.

Results

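Dux overexpression in mouse embryonic stem cells (mESCs) is known mainly for the genes it switches on. The values below concern genes whose transcripts were low after Dux was induced. They were chosen by level alone. Counts of a gene were scaled to CPM by the library total, the 2 libraries of a group were averaged, 1 was added, and a gene was kept when the ratios of untreated ESC over Dux OE and of DMSO-treated ESC over Dux OE were both 2 or more. Of 55291 genes counted, 45 passed. Foxd3 was left out by name, as any gene of the mitochondrial genome or of the Hist, Hox, Klf and Col families would have been, and 44 genes remained, of which 35 are protein coding and 9 are noncoding RNAs or pseudogenes in GENCODE M21. Because ESC, DMSO and Dux OE libraries chose the genes, comparisons that use those groups are given as a description without a test, and tests are given only between the 10 groups that the rule did not use.

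All 13 groups are cells of the R1 mESC line, kept with LIF on gelatin, with 2 poly(A) RNA-seq libraries each. Wild-type cells were untreated (ESC), given DMSO, given 0.53 µM retinoic acid (RA) for 48 h, given the splicing inhibitor pladienolide B (PlaB) at 4 nM for 4 days, or given 4 µg/mL doxycycline for 24 h to induce Dux (Dux OE), a point mutant of it (DuxR70A OE) or Zscan4 (Zscan4 OE). Dux knockdown (Dux KD) cells received RA or PlaB at these doses or carry a Zscan4 OE label, and SE KO cells, which lack the super-enhancer of the Tdpoz cluster, received RA, PlaB or doxycycline for Dux. The treatment entry of the Dux KD Zscan4 OE libraries reads "no", and the genotype entry of SE KO RA replicate 1 reads WT although its title says SE KO. Outside the rule, wild-type Dux was induced only in SE KO cells, so that in SE KO Dux OE against DuxR70A OE the genotype and the form of Dux cannot be told apart.

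Dux is a double homeobox transcription factor of the 2-cell mouse embryo. In mESCs it binds MERVL repeats and nearby promoters and switches on 2-cell (2C) genes such as Zscan4 and Zfp352. The naive pluripotent state is held by LIF signalling through STAT3 and by WNT signalling through beta-catenin. FGF signalling through ERK favours differentiation and induces its own inhibitors, the Sprouty proteins and DUSP phosphatases.

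Promoters of 4 of the genes are shown because these genes were called lower in SE KO Dux OE than in DuxR70A OE in the test described below. Tet2 was the most abundant of the genes so called, Aire was among the most strongly lowered, and Soga3 and 9330159F19Rik are neighbours. The sequences are RefSeq windows of 300 bases on GRCm38.p6, from 250 bases before to 50 bases after the transcript start, written 5′ to 3′ on the strand of the gene. They lie at chr3:133544341-133544640 (Tet2, minus strand), chr10:78043561-78043860 (Aire, minus strand), chr10:29143746-29144045 (Soga3, plus strand) and chr10:29211393-29211692 (9330159F19Rik, plus strand). Capitals mark a GGGCGG box in Tet2, TATAAA in Aire, the hypoxia element core GCGTG in Soga3 and the cAMP response element TGACGTCA in 9330159F19Rik, each read on either strand.
Tet2: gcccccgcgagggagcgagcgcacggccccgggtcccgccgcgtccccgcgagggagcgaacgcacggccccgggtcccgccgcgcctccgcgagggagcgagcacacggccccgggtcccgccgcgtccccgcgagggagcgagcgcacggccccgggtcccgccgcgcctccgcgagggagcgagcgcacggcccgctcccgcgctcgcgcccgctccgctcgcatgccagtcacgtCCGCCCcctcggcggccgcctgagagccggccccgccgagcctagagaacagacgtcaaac
Aire: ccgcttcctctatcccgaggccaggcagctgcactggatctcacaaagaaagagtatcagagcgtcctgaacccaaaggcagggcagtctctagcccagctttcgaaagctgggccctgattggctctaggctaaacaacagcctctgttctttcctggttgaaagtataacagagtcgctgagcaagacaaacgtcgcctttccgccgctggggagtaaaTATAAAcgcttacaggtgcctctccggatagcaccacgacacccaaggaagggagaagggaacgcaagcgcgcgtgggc
Soga3: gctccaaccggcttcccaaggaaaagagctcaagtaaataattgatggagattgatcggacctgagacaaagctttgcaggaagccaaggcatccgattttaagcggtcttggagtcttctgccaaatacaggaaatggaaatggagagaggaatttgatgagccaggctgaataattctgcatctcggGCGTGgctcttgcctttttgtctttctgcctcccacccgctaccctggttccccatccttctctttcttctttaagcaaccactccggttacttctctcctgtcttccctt
9330159F19Rik: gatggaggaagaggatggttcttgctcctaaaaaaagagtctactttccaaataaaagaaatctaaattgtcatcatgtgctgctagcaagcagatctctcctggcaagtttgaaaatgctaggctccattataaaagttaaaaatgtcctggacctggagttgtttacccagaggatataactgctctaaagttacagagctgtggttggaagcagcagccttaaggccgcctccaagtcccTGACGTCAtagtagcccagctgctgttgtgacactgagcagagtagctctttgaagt

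Windows were at hand for 25 of the 44 genes, 36 windows in all, and were searched on both strands beside all 32851 windows of the table. The palindromic Dux motif was in 0 of the 36 and in 0.0335% of all windows, the STAT motif TTCNNNGAA in 0 and 8.30%, and the SMAD motif GTCTAGAC in 0 and 0.213%. GGGCGG was in 17 (47.2%, against 35.7%) and GCGTG in 17 (47.2%, against 32.4%), the latter in windows of Soga3, Aire, Pfkfb3 and Tfrc among others. CCAAT was in 10 (27.8%, against 37.4%), TATAAA in 6 (16.7%, against 13.6%), and TGACGTCA in 2 (5.56%, against 1.79%). The WNT effector motif CTTTGA was in 4 (11.1%, against 16.0%), Lef1 included, and the E-box CACGTG in 3 (8.33%, against 7.15%). Neighbouring motifs may share bases. A match is a match of letters, and its absence says only that the letters are not in these windows.

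The libraries held 14401452 to 39402840 counts, and 3 counts correspond to 0.0761 to 0.208 CPM, a limit that covers counting error only. The 8 pluripotency markers summed to 3353 to 7946 CPM over all libraries, a sum that hides changes of single markers. By group means, Sox2 (29.4 against 342 CPM), Nanog (83.1 against 597), Esrrb (103 against 1045), Pou5f1 (228 against 578) and Utf1 (269 against 326) were lower in PlaB than in ESC. Dppa5a (2857 against 838), Zfp42 (1403 against 764) and Tdgf1 (630 against 613) were higher. In SE KO RA all but Dppa5a (1622 CPM) were below ESC, with Esrrb at 98.2 CPM. The 2C markers summed to 2959 and 3066 CPM in Dux OE, 1240 and 1481 in SE KO Dux OE, 0.465 and 0.558 in DuxR70A OE and 17.1 and 20.1 in ESC. Duxf3, the Dux gene of the table, had 55 and 48 counts in Dux OE (a mean of 3.32 CPM), 55 and 39 in the deeper SE KO Dux OE libraries (1.29 CPM), 0 and 0 in the libraries labelled DuxR70A OE and 3 and 0 in ESC, so that expression of the mutant cannot be read from this gene. In the libraries labelled Dux KD Zscan4 OE, Zscan4c averaged 0.892 CPM, below the 5.28 CPM of ESC and the 101 CPM of Zscan4 OE. The labelled overexpression thus does not show at this gene. Whether a Zscan4 transgene would be counted there cannot be read from these counts. Replicates differed by 1.55 to 30.2 chi-square per degree of freedom, most in SE KO PlaB. The study describes replicates as biological where it compares SE KO Dux OE with Dux OE and SE KO RA with RA-treated control cells. For the groups where nothing says that they are separate cultures, p-values measure the spread between these libraries, which may be technical. In bulk RNA, fewer cells with a transcript and less of it per cell cannot be told apart.

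**Figure D1:**
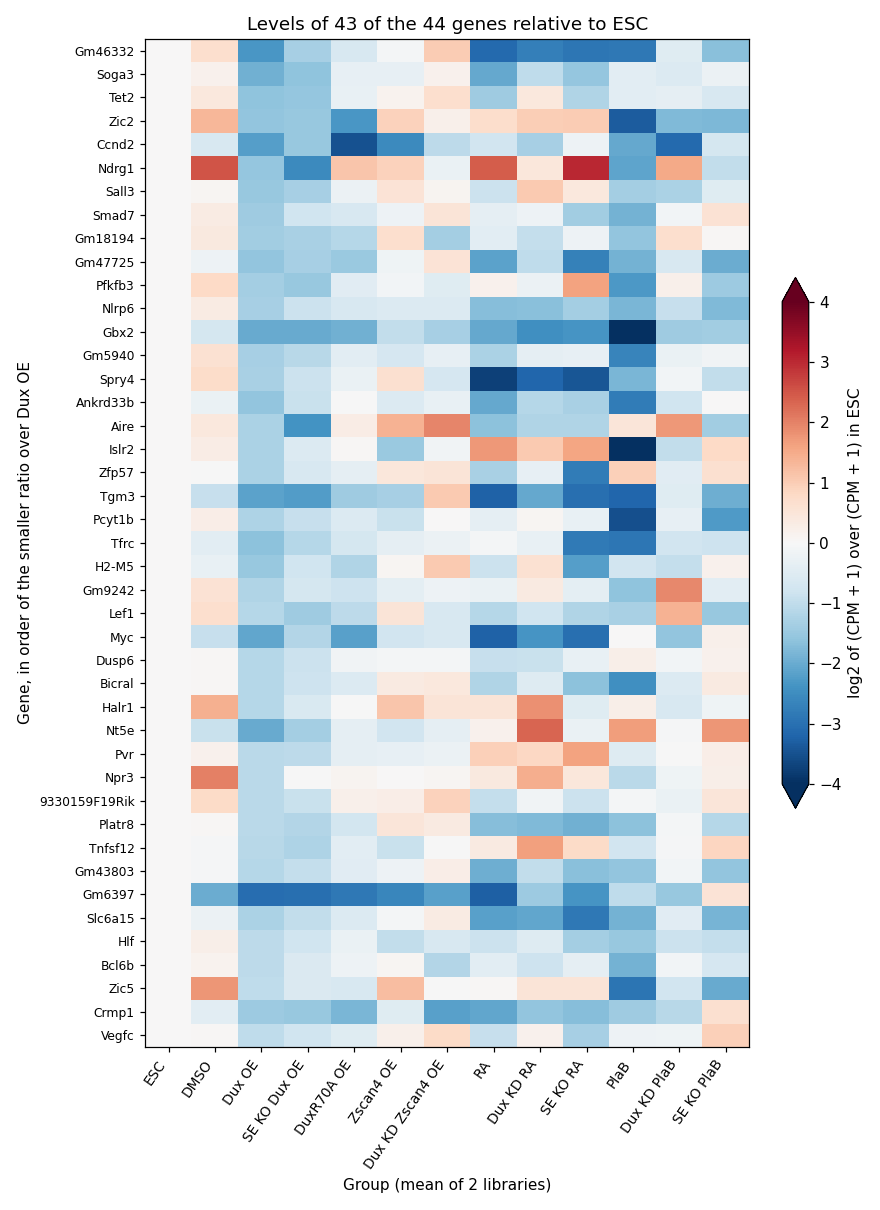
Level of 43 of the 44 genes (rows, in order of the smaller of the 2 ratios) in the 13 groups (columns, means of 2 libraries), as log2 of CPM + 1 relative to CPM + 1 in ESC. Dux OE is lower than ESC in every row because the rule asked for it. Of all 44 genes SE KO Dux OE reaches a ratio of 2 in 24 (1.59% of all genes at 1 CPM or more in ESC) and DuxR70A OE in 11 (3.07%). The ESC libraries are those of the rule, so nothing is read from these counts. PlaB is the lowest group for 18, a count not made over all genes.

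The smaller of the 2 ratios ran from 4.97 for Gm46332 to 2.01 for Vegfc. Just inside the threshold were Zic5 (2.04), Crmp1 (2.03) and Vegfc, and just outside it Pax8 (1.995), Inhbb (1.98) and Clmp (1.98). Per kilobase of exon, Tfrc stood highest in ESC at 89.0 CPM, followed by Zfp57 at 72.9 and Spry4 at 44.5, and 9330159F19Rik lowest at 0.380. For the pseudogenes Gm6397, Gm5940 and Gm18194 the ESC libraries lay far apart, at 0.668 and 31.2, 1.06 and 9.77, and 12.1 and 2.37 CPM, so that 1 library carries their ESC ratio.

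Among genes that act on chromatin, Tet2, which oxidises 5-methylcytosine, was at 169 and 182 CPM in ESC, 240 and 235 in DMSO and 55.5 and 59.3 in Dux OE. It was at 64.1 and 54.4 CPM in SE KO Dux OE, 136 and 150 in DuxR70A OE and 193 and 199 in Zscan4 OE. The SE KO Dux OE libraries overlapped those of Dux OE, and the mutant libraries lay below ESC and above both wild-type Dux groups. Zfp57, a KRAB zinc finger protein that keeps methylation at imprinted regions, was at 276 and 276 CPM in ESC, 114 and 114 in Dux OE, 171 and 181 in SE KO Dux OE, and 211 and 223 in DuxR70A OE. Bicral, a subunit of a BAF remodelling complex, was at 111 and 111 CPM in ESC, 50.5 and 48.3 in Dux OE, 61.8 and 61.0 in SE KO Dux OE, and 73.4 and 77.5 in DuxR70A OE. By raw CPM both SE KO Dux OE libraries were below both mutant libraries in all 3 genes. The same held for 48% of all genes at 1 CPM or more in ESC. In the test described below Tet2 was called. Zfp57 (log2 fold change -0.15 ± 0.08 SE, edgeR adjusted p = 0.15) and Bicral (-0.14 ± 0.08, edgeR adjusted p = 0.15) were not. Orderings of libraries in the next paragraphs are by raw CPM as well.

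Transcription factors made up a second set. Zic2, a zinc finger factor of neural development, was at 11.4 and 9.66 CPM in ESC, 2.60 and 3.17 in Dux OE, 3.27 and 2.82 in SE KO Dux OE, and 1.73 and 0.863 in DuxR70A OE. Its neighbour Zic5, 9758 bases away on chromosome 14, was at 16.9 and 16.8 CPM in ESC, 8.66 and 6.90 in Dux OE, 11.1 and 10.6 in SE KO Dux OE, and 9.09 and 11.6 in DuxR70A OE. Zic2 was lowest with the mutant, whereas the Zic5 libraries of SE KO Dux OE and DuxR70A OE overlapped. Gbx2, a homeobox factor downstream of LIF, was at 66.8 and 66.6 CPM in ESC, 16.6 and 14.9 in Dux OE, 15.2 and 16.0 in SE KO Dux OE, and 18.3 and 15.7 in DuxR70A OE. Myc was at 69.4 and 65.3 CPM in ESC, 15.3 and 15.0 in Dux OE, 25.8 and 32.5 in SE KO Dux OE, and 15.9 and 12.1 in DuxR70A OE. For Gbx2 the mutant and SE KO Dux OE overlapped, and for Myc the mutant was the lower. Aire, which drives expression of tissue antigens in the thymus, was at 9.90 and 8.65 CPM in ESC, 3.40 and 3.11 in Dux OE, 0.736 and 1.15 in SE KO Dux OE, and 11.04 and 12.02 in DuxR70A OE. Sall3, a spalt-family factor, was at 7.45 and 8.59 CPM in ESC, 2.53 and 1.74 in Dux OE, 2.46 and 2.67 in SE KO Dux OE, and 7.25 and 6.11 in DuxR70A OE. The mutant libraries were above ESC for Aire and below both ESC libraries for Sall3, and for both genes they were above those of SE KO Dux OE.

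Several members act in signalling pathways, as ligands (Vegfc, and Tnfsf12, the cytokine TWEAK), as a receptor (Npr3, which clears natriuretic peptides), and as effectors and inhibitors. Spry4, a Sprouty inhibitor of ERK signalling, was at 220 and 203 CPM in ESC, 81.8 and 88.6 in Dux OE, 115 and 119 in SE KO Dux OE, and 181 and 172 in DuxR70A OE. Dusp6, a phosphatase of ERK, was at 59.8 and 61.0 CPM in ESC, 25.04 and 28.4 in Dux OE, 32.2 and 33.9 in SE KO Dux OE, and 55.2 and 54.3 in DuxR70A OE. Both showed the mutant libraries between those of ESC and those of SE KO Dux OE. Smad7, the inhibitory SMAD of TGF-beta and BMP signalling, was at 134 and 120 CPM in ESC, 41.7 and 51.2 in Dux OE, 73.1 and 71.7 in SE KO Dux OE, and 82.4 and 79.6 in DuxR70A OE. Lef1, a DNA-binding partner of beta-catenin, was at 4.06 and 3.79 CPM in ESC, 0.999 and 1.43 in Dux OE, 0.761 and 0.879 in SE KO Dux OE, and 1.51 and 1.26 in DuxR70A OE. Ccnd2, a D-type cyclin of G1 phase, was at 38.9 and 35.7 CPM in ESC, 6.66 and 8.02 in Dux OE, 12.2 and 12.7 in SE KO Dux OE, and 1.73 and 3.05 in DuxR70A OE. Its mean in the mutant was the lowest of the 13 groups.

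Genes of transport and metabolism included the most divergent members. Ndrg1, which hypoxia induces, was at 84.5 and 91.2 CPM in DMSO and at 12.1 and 16.6 CPM in ESC, 3.66 and 4.97 in Dux OE, 1.78 and 1.52 in SE KO Dux OE, and 35.7 and 28.5 in DuxR70A OE. The 2 control groups thus lay far apart for this gene. Pfkfb3, whose product stimulates glycolysis, was at 30.8 and 32.5 CPM in ESC, 11.5 and 11.8 in Dux OE, 12.2 and 8.55 in SE KO Dux OE, and 23.1 and 22.2 in DuxR70A OE. For these genes SE KO Dux OE lay below the mutant without overlap. Tfrc, the transferrin receptor, was at 534 and 567 CPM in ESC, 178 and 177 in Dux OE, 265 and 229 in SE KO Dux OE, and 312 and 365 in DuxR70A OE. Pcyt1b, an enzyme of phosphatidylcholine synthesis, was at 104 and 96.7 CPM in ESC, 44.1 and 40.1 in Dux OE, 48.0 and 55.7 in SE KO Dux OE, and 67.2 and 69.99 in DuxR70A OE. Here too SE KO Dux OE was below the mutant in each library by raw CPM. Neither Tfrc (log2 fold change -0.30 ± 0.08 SE) nor Pcyt1b (-0.25 ± 0.10) was called in the test below.

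Of the remaining coding genes, Soga3 was at 8.23 and 8.89 CPM in ESC, 1.53 and 1.49 in Dux OE, 2.13 and 2.12 in SE KO Dux OE, and 6.41 and 6.84 in DuxR70A OE. Its neighbour 9330159F19Rik, 11976 bases away on chromosome 10, was at 2.67 and 1.72 CPM in ESC, 0.533 and 0.497 in Dux OE, 1.14 and 0.303 in SE KO Dux OE, and 2.51 and 2.92 in DuxR70A OE. Both share exon bases with Gm49353. H2-M5, a nonclassical MHC class I gene 11626 bases from Zfp57 on chromosome 17, was at 39.9 and 38.4 CPM in ESC, 13.6 and 12.6 in Dux OE, 22.3 and 22.0 in SE KO Dux OE, and 17.9 and 15.1 in DuxR70A OE, with the mutant below SE KO Dux OE. Tgm3, a transglutaminase, was at 9.90 and 12.1 CPM in ESC, 1.60 and 1.80 in Dux OE, 1.57 and 1.52 in SE KO Dux OE, and 3.51 and 3.39 in DuxR70A OE. Among noncoding members, Gm46332, a lincRNA on chromosome 12, was at 9.96 and 11.6 CPM in ESC, 1.73 and 0.994 in Dux OE, 4.21 and 3.21 in SE KO Dux OE, and 6.58 and 6.64 in DuxR70A OE. Gm47725, a lincRNA on chromosome 10, was at 8.29 and 8.35 CPM in ESC, 1.86 and 2.36 in Dux OE, 2.61 and 2.82 in SE KO Dux OE, and 2.68 and 2.06 in DuxR70A OE, so that wild type and mutant overlapped. Exon bases are shared with another gene in 13 of the 44, on the opposite strand in 11, and as the strand setting of the counting is not given in the sources used here such reads cannot be separated. The partner reached 1 CPM in ESC for 3 of them, Gbx2 (with D130058E05Rik), Gm43803 (with Gm43805) and Aire (with Dnmt3l, at 144 CPM in ESC and 94.1 in Dux OE, over 67 shared bases).

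Islr2, a leucine-rich repeat membrane protein, was at 18.1 and 20.8 CPM in ESC, 7.66 and 7.39 in Dux OE, 12.7 and 13 in SE KO Dux OE, and 22.1 and 17.8 in DuxR70A OE, and Ankrd33b at 28.1 and 26.8 CPM in ESC, 9.39 and 7.83 in Dux OE, 14.3 and 14.5 in SE KO Dux OE, and 26.9 and 27.6 in DuxR70A OE. The Ankrd33b libraries of the mutant overlapped those of ESC. Nlrp6, a NOD-like receptor of the inflammasome, was at 3.84 and 3.79 CPM in ESC, 0.866 and 0.994 in Dux OE, 1.70 and 1.61 in SE KO Dux OE, and 2.17 and 1.99 in DuxR70A OE. Nt5e, the ecto-5′-nucleotidase CD73, was at 6.23 and 6.52 CPM in ESC, 0.932 and 0.746 in Dux OE, 2.13 and 1.61 in SE KO Dux OE, and 3.51 and 5.98 in DuxR70A OE. For Nlrp6 and Nt5e the mutant lay between ESC and SE KO Dux OE by raw CPM, and only Nt5e was called in the test below. Crmp1, a cytosolic protein of semaphorin signalling, was at 47.4 and 45.9 CPM in ESC, 16.4 and 16.2 in Dux OE, 14.8 and 16.6 in SE KO Dux OE, and 12.1 and 12.9 in DuxR70A OE. By raw CPM the mutant was below SE KO Dux OE, and Crmp1 was not called in the test below. Pvr, a nectin-like adhesion molecule, was at 24.6 and 24.5 CPM in ESC, 10.7 and 11.4 in Dux OE, 11.9 and 10.6 in SE KO Dux OE, and 19.6 and 17.8 in DuxR70A OE, and Slc6a15, a neutral amino acid transporter, at 12.2 and 16.8 CPM in ESC, 4.79 and 6.03 in Dux OE, 7.11 and 6.43 in SE KO Dux OE, and 8.70 and 10.4 in DuxR70A OE. For Pvr and Slc6a15 the mutant was above SE KO Dux OE without overlap by raw CPM. Neither Pvr (log2 fold change -0.58 ± 0.11 SE) nor Slc6a15 (-0.33 ± 0.23) was called in the test below. Npr3 was at 4.73 and 4.32 CPM in ESC, 1.60 and 1.62 in Dux OE, 4.57 and 4.30 in SE KO Dux OE, and 4.96 and 4.85 in DuxR70A OE, and its DMSO libraries, at 20.5 and 22.4 CPM, were far above ESC. Vegfc was at 18.97 and 15.3 CPM in ESC, 7.19 and 8.82 in Dux OE, 9.90 and 9.03 in SE KO Dux OE, and 11.7 and 12.02 in DuxR70A OE, and Tnfsf12 at 3.17 and 3.85 CPM in ESC, 1.27 and 0.932 in Dux OE, 0.812 and 1.06 in SE KO Dux OE, and 2.17 and 2.59 in DuxR70A OE. For both ligands the mutant was above SE KO Dux OE by raw CPM, and only Tnfsf12 was called in the test below. Bcl6b, a zinc finger repressor, was at 11.5 and 15.5 CPM in ESC, 5.93 and 6.21 in Dux OE, 9.21 and 8.06 in SE KO Dux OE, and 11.7 and 11.7 in DuxR70A OE. Halr1, a lincRNA, was at 54.3 and 58.4 CPM in DMSO and at 20.3 and 20.3 CPM in ESC, 8.39 and 9.07 in Dux OE, 12.9 and 12.9 in SE KO Dux OE, and 18.8 and 21.7 in DuxR70A OE. The low members Hlf, a bZIP factor, Platr8, Gm9242 and Gm43803 had means under 4 CPM in ESC, where Hlf was at 1.95 and 3.20, Platr8 at 2.89 and 3.91, Gm9242 at 2.84 and 1.72 and Gm43803 at 3.23 and 2.67 CPM.

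**Figure D2:**
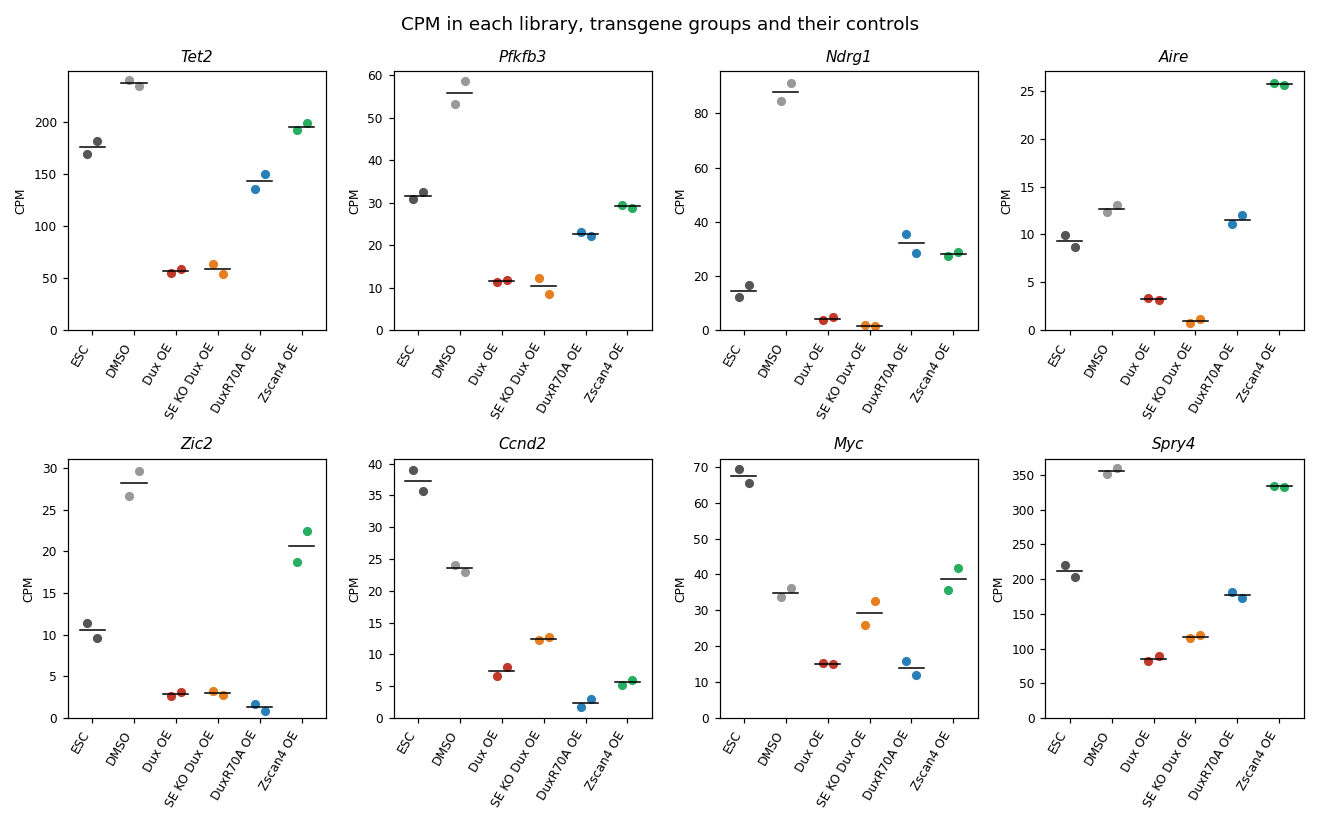
CPM of 8 of the genes in each library of ESC, DMSO and the 4 transgene groups, on linear axes from 0, with points for libraries and lines for the mean of 2. Tet2, Pfkfb3, Ndrg1 and Aire are lower in both wild-type Dux groups than in DuxR70A OE, while Zic2 and Ccnd2 are lowest in DuxR70A OE.

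Against ESC, by the measure of the rule, 24 of the 44 had a ratio of 2 or more over SE KO Dux OE, where 1.59% of the 13497 genes at 1 CPM or more in ESC did. Over DuxR70A OE 11 had such a ratio (3.07% of all), over Zscan4 OE 4 (1.95%) and over DMSO 1 (4.68%). All 44 had it over Dux OE, as the rule asked (1.09% of all). The numbers were 6 over Dux KD Zscan4 OE (1.44%), 8 over Dux KD PlaB (2.17%) and 15 over SE KO PlaB (3.69%). In the other direction, a level of 2 or more times ESC was met by 5 genes in DMSO (6.42% of all), 0 in Dux OE (1.91%), 0 in SE KO Dux OE (2.87%), 2 in DuxR70A OE (9.37%), 3 in Zscan4 OE (4.76%) and 4 with its Dux KD label (3.28%), and by 2 in RA (15.6%), 6 with Dux KD (15.3%), 6 with SE KO (17.8%), 1 in PlaB (23.4%), 4 with Dux KD (5.66%) and 1 with SE KO (8.34%). The ESC libraries are those of the rule, so nothing is read from these shares. Low in both SE KO Dux OE and DuxR70A OE were 10 genes, Zic2, Ccnd2, Gbx2, Tgm3, Lef1, Myc, Crmp1, Gm18194, Gm47725 and Gm6397. Low in SE KO Dux OE alone were 14, Tet2, Soga3, Ndrg1, Sall3, Pfkfb3, Aire, Tfrc, Nt5e, Pvr, Tnfsf12, Platr8, Gm46332 and Gm5940 among them, and in DuxR70A OE alone H2-M5. For 19 genes, Spry4, Dusp6, Smad7 and Zfp57 among them, neither ratio reached 2. These joint counts use the ESC libraries of the rule and were not made over all genes, so nothing is read from them. For Gm6397, Gm5940 and Gm18194 they rest on 1 ESC library.

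The test that compares the forms of Dux without the libraries of the rule is SE KO Dux OE against DuxR70A OE, where the genotype differs as well. By edgeR's quasi-likelihood test over 20953 genes (adjusted p under 0.05 and a log2 fold change of at least 1 in size), 10 of the 44 were lower in SE KO Dux OE, against 8.97% of all genes, and 3 were higher, against 9.28%. The median log2 fold change was -0.46 over the 44 and 0.02 over all genes. By CPM, both SE KO Dux OE libraries were below both mutant libraries for 32 of the 44, against 48% of all genes at 1 CPM or more in ESC. Scaled by library size alone, 11 members were lower and 3 higher, and 2432 of all genes were lower and 1633 higher in place of 1880 and 1945.

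Ndrg1 fell furthest, with a log2 fold change of -4.12 ± 0.23 (SE; edgeR adjusted p = 7.1e-14), followed by Aire at -3.47 ± 0.23 (edgeR adjusted p = 2.8e-12). In both genes the mutant libraries were above both ESC libraries. Tet2 differed by -1.12 ± 0.14 (edgeR adjusted p = 1.6e-07) and Soga3 by -1.48 ± 0.24 (edgeR adjusted p = 1.3e-05). Also lower were 9330159F19Rik (-1.71 ± 0.46), Sall3 (-1.23 ± 0.25), Tnfsf12 (-1.19 ± 0.25), Nt5e (-1.16 ± 0.34), and Tgm3 (-1.004 ± 0.25). Higher in SE KO Dux OE were Ccnd2 at 2.56 ± 0.18 (edgeR adjusted p = 1.0e-11), Zic2 at 1.35 ± 0.48 (edgeR adjusted p = 0.023) and Myc at 1.20 ± 0.14 (edgeR adjusted p = 4.7e-08). Some calls were lost, mostly without 1 library: Zic2 without SE KO Dux OE replicate 1 (1.26) or DuxR70A OE replicate 2 (0.96), Nt5e without SE KO Dux OE replicate 2 (-1.001) or DuxR70A OE replicate 2 (-0.76), Tgm3 without SE KO Dux OE replicate 2 (-0.999) or DuxR70A OE replicate 1 (-0.95) and with no low-count filter (-0.997), 9330159F19Rik without SE KO Dux OE replicate 2 (-1.11) and Tnfsf12 without SE KO Dux OE replicate 1 (-0.98). The 6 fibroblast markers summed to 88.9 and 90.1 CPM in SE KO Dux OE and 47.5 and 51.8 in DuxR70A OE. By group means, Thy1 (62.8 against 21.6 CPM) and Postn (12.1 against 0) were higher in SE KO Dux OE. Pdgfrb (12.2 against 25.3) and Pdgfra (2.10 against 2.67) were lower there. Lum and Dcn were at 0.0860 and 0.197 CPM in SE KO Dux OE and at 0 in DuxR70A OE. The part of the fibroblast markers in the result, and that of the 2C markers given above, was not tested.

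**Figure D3:**
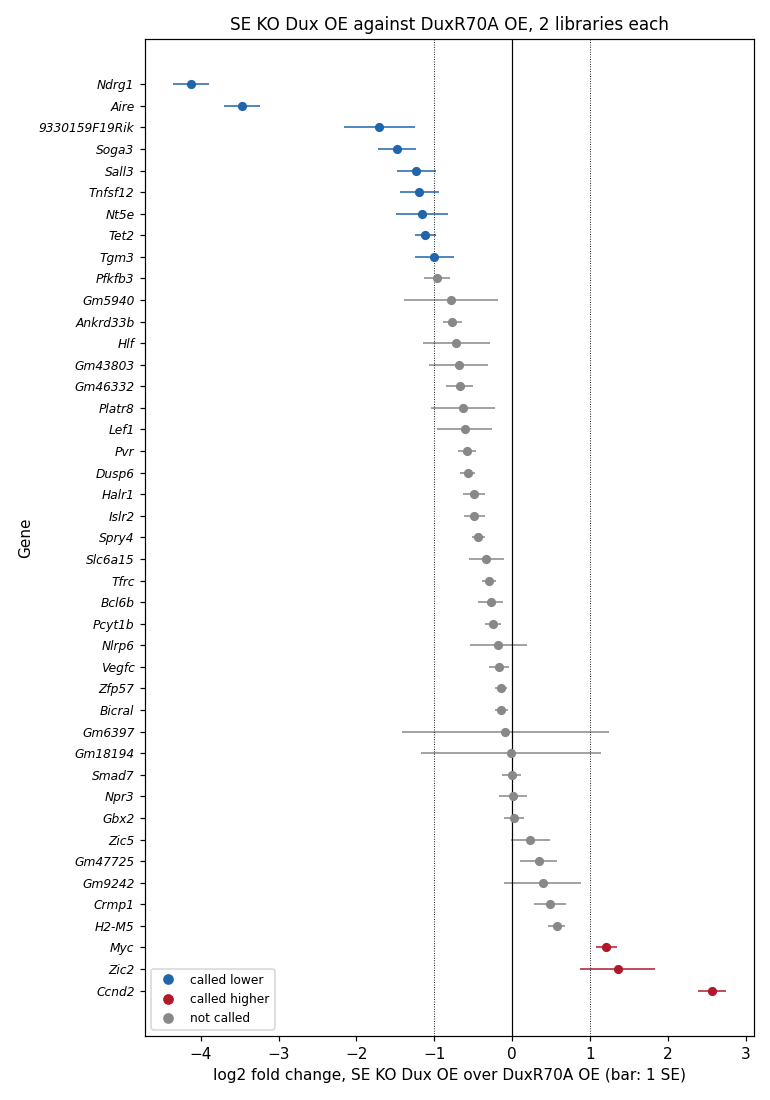
Log2 fold change of 43 of the 44 genes (rows) in SE KO Dux OE over DuxR70A OE, 2 libraries each, with bars of 1 SE, blue for genes called lower, red for genes called higher and grey for the others, and dotted lines at a change of 1. Ndrg1 and Aire lie below -3 and Ccnd2 above 2.

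Other genes of the same pathways were read from lists. In the hypoxia response list 9 of 11 genes were lower in SE KO Dux OE than in DuxR70A OE and the other 2 were not called, where 8.97% of all genes were lower and 9.28% higher. In the same list 6 were lower than in Zscan4 OE, against 5.22% of all. Bnip3, a mitophagy receptor, was at -4.29 ± 0.14 on the log2 scale against the mutant, Egln3, an oxygen-sensing prolyl hydroxylase, at -2.56 ± 0.21, and the angiogenic ligand Vegfa at -2.07 ± 0.14, beside the member Ndrg1. In the glycolysis list 6 of 17 were lower, the kinases Hk2 (-1.11 ± 0.10) and Pfkp (-1.18 ± 0.09) among them, while the member Pfkfb3 was not called. In the FGF-ERK list 6 of 23 were lower, namely the immediate early genes Egr1, Fos, Fosl1, Junb and Ier3 and the ligand Fgf4, and not the members Spry4 and Dusp6. In the WNT list 5 of 17 were lower, without Lef1, and in the BMP, NODAL and TGF-beta list 3 of 15 were lower and 2 higher, without Smad7. Tet2 was the 1 gene called of 9 in the DNA methylation list and Myc the 1 called of 17 in the MYC and ribosome list, and Ccnd2 and Ccne2 were the 2 called, both higher, of 19 cell cycle genes. None was called of 9 genes of LIF-JAK-STAT signalling, Gbx2 included, or of 15 repressors of Dux and 2C genes, Zfp57 included. Of these, 6 and 6 had an unadjusted edgeR p under 0.05, and DESeq2 called 0 and 0.

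Zscan4 OE gave a reference with another induced transgene. It was not a reference without Dux, as Duxf3 had 27 and 17 counts there (a mean of 1.32 CPM), beside 1.29 CPM in SE KO Dux OE. In SE KO Dux OE 22 of the 44 were lower than in Zscan4 OE, against 5.22% of all genes, and 2 were higher, against 7.9%. The median log2 fold change was -1.01, against 0.04 over all genes, and both libraries were below both Zscan4 OE libraries for 37 genes, against 43.9% of all. Aire fell furthest, at -4.71 ± 0.22 (edgeR adjusted p = 6.8e-15) from 25.8 and 25.6 CPM, and Ndrg1 next, at -4.01 ± 0.23 (edgeR adjusted p = 4.2e-13) from 27.4 and 29.0 CPM. Lower too were Lef1 (-2.80 ± 0.29), Tet2 (-1.65 ± 0.14), Spry4 (-1.43 ± 0.08), Pfkfb3 (-1.41 ± 0.17), Zfp57 (-1.03 ± 0.08) and Gbx2 (-1.01 ± 0.12). Ccnd2 (1.23 ± 0.16) and Islr2 (1.10 ± 0.15) were higher. The call was lost for Gbx2 without SE KO Dux OE replicate 1 (-0.95) or Zscan4 OE replicate 1 (-0.92) and for Zfp57 without SE KO Dux OE replicate 1 (-0.97). The fibroblast markers summed to 25.8 and 27.2 CPM in Zscan4 OE, below the sums of SE KO Dux OE given above, and 4 of 5 genes of the fibroblast list were higher in SE KO Dux OE. The 2C markers summed to 243 and 249 CPM in Zscan4 OE. The part of either in the result was not tested.

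In DuxR70A OE 12 of the 44 were lower than in Zscan4 OE, against 5.8% of all genes, and 2 were higher, against 6.04%, with a median log2 fold change of -0.53 against 0. Both mutant libraries were below both Zscan4 OE libraries for 26 genes, against 34.2% of all. Zic2 fell furthest, at -4.03 ± 0.42 (edgeR adjusted p = 2.4e-08) from 18.8 and 22.5 CPM, and Lef1 next among the genes named here, at -2.19 ± 0.30 (edgeR adjusted p = 2.0e-06) from 5.52 and 6.51 CPM. Myc (-1.54 ± 0.14), Ccnd2 (-1.33 ± 0.21) and Gbx2 (-1.03 ± 0.13) were lower, as were Zic5, Aire, H2-M5, Halr1, Platr8, Crmp1 and Gm47725. Islr2 (1.58 ± 0.16) was among those higher in the mutant. Ccnd2 lost its call without DuxR70A OE replicate 1 (-0.97), and Gbx2 without DuxR70A OE replicate 2 (-0.91) or Zscan4 OE replicate 1 (-0.94) and with library size only (-0.95). Both comparisons with Zscan4 OE share its libraries.

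**Figure D4:**
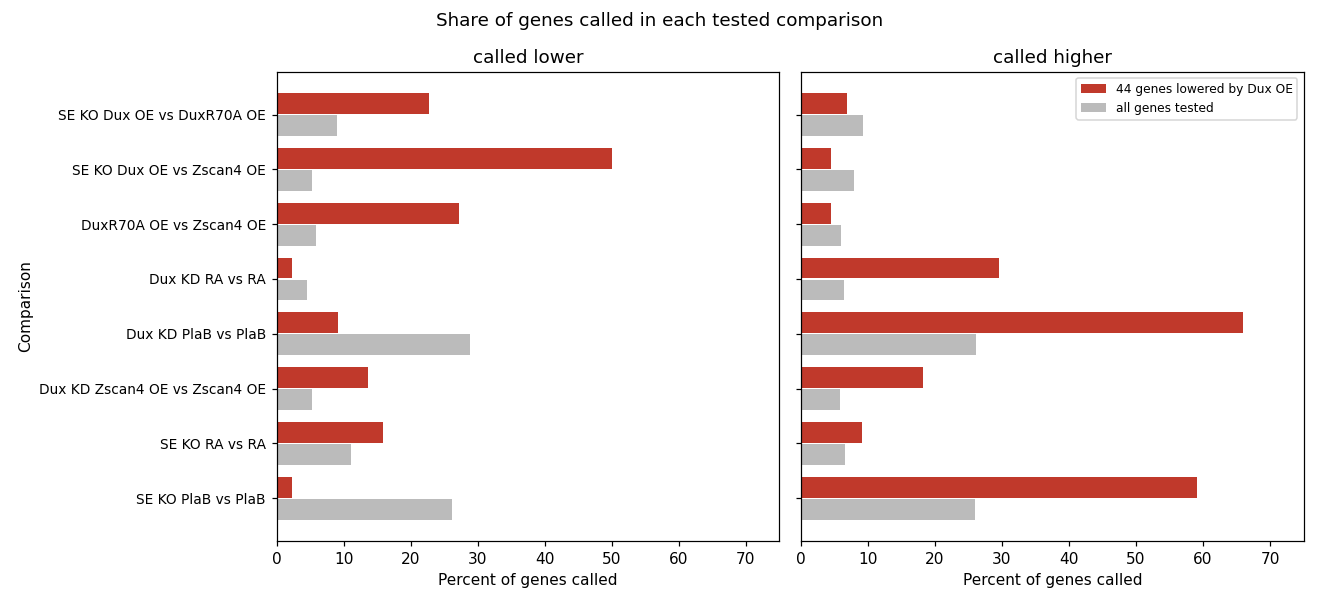
Percent of the 44 genes (red) and of all 20953 genes tested (grey) called lower (left) and higher (right) in each of the 8 comparisons tested, on axes from 0. Of the 44, 22 were lower in SE KO Dux OE than in Zscan4 OE, and 29 and 26 were higher than in PlaB with Dux KD and with SE KO.

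With RA, 20 of the 44 had an ESC ratio of 2 or more (5.33% of all genes). With Dux KD the number was 15 (4.36%) and with SE KO 24 (11.2%). Spry4 was at 14.4 and 15.2 CPM in RA, with Dux KD at 21.8 and 23.5 and with SE KO at 18.2 and 19.7, below its level in every group without RA. Myc was at 6.58 and 6.04 CPM in RA and Tet2 at 64.0 and 64.9. Islr2, by contrast, was at 65.6 and 69.5 CPM in RA, above ESC and above DMSO, at 24.1 and 24.3. Ndrg1, at 79.7 and 83.9 CPM in RA, was above ESC and below both DMSO libraries, at 84.5 and 91.2. The primitive endoderm markers summed to 79.0 and 82.4 CPM in RA and 7.35 and 9.003 in DMSO, and their part in these levels was not tested.

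In Dux KD RA 13 of the 44 were higher than in RA, against 6.41% of all genes, and 1 was lower, against 4.54%, with a median log2 fold change of 0.57 against 0.01. Tet2 rose to 238 and 238 CPM, above both ESC libraries (1.82 ± 0.14, edgeR adjusted p = 1.5e-10). Nt5e rose from 6.06 and 8.42 to 33.0 and 39.6 CPM (2.26 ± 0.27, edgeR adjusted p = 2.3e-07) and Tgm3 from 0.382 and 0.198 to 1.61 and 2.25 CPM (2.63 ± 0.41, edgeR adjusted p = 1.3e-05). Ndrg1 was the gene that fell, to 19.3 and 21.2 CPM (-2.08 ± 0.18, edgeR adjusted p = 1.8e-09), and 6 of 11 hypoxia genes and 8 of 17 glycolysis genes were lower in the same comparison. Gm43803, at 3 counts or fewer in each RA library, was at least 6.63-fold higher than the floor of 3 counts per library. Duxf3 had 49 and 59 counts in RA and 16 and 6 in Dux KD RA (means of 2.63 and 0.716 CPM). The 2C markers summed to 495 and 581 CPM in RA and to no more than 409 CPM in either Dux KD RA library. Of 15 genes of the 2C list, 4 were lower in Dux KD RA than in RA, Duxf3 included, and 1 was higher. Their median log2 fold change was -0.42. In Dux KD PlaB against PlaB all 15 were lower. The primitive endoderm markers summed to 103 and 104 CPM in Dux KD RA. The part of the 2C and primitive endoderm markers in the result was not tested.

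In SE KO RA 7 of the 44 were lower than in RA, against 11% of all genes, and 4 higher, against 6.57%. The median log2 fold change was 0.29, against -0.04 over all genes, and the change was positive for 28 of the 44, so that the calls and the median differ in sign. Tfrc fell from 542 and 495 to 70.2 and 82.4 CPM (-2.71 ± 0.09, edgeR adjusted p = 2.9e-18) and Zfp57 from 111 and 115 to 38.3 and 39.1 CPM (-1.50 ± 0.09, edgeR adjusted p = 3.4e-13). Smad7 fell from 102 and 94.8 to 46.0 and 48.8 CPM (-1.01 ± 0.13), a call lost without RA replicate 1 (-0.96) or SE KO RA replicate 1 (-0.97), with no low-count filter (-0.97) and in a fit of only these 2 groups (-0.98). Sall3 (1.54 ± 0.24) rose, as did Pfkfb3, from 33.9 and 37.7 to 96.2 and 102 CPM (1.52 ± 0.15). Without RA replicate 1, and likewise without SE KO RA replicate 1, the library with the WT genotype entry, 4 genes were lower. From RA to SE KO RA the pluripotency markers went from 4197 and 4241 to 3353 and 3372 CPM, the primitive endoderm markers from 79.0 and 82.4 to 46.9 and 50.9 and the neural and mesoderm markers from 63.7 and 64.7 to 109 and 112. Their part in the result was not tested.

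**Figure D5:**
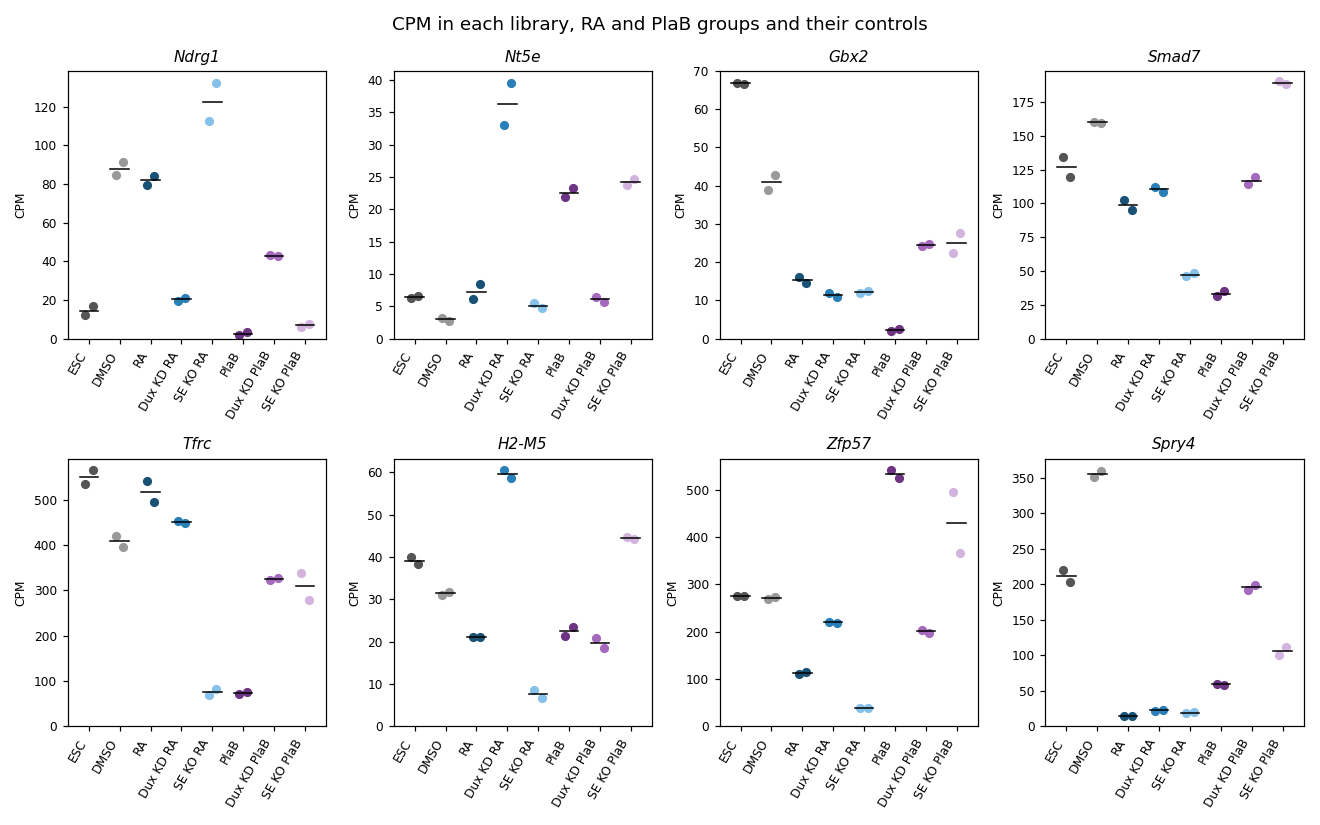
CPM of 8 of the genes in each library of ESC, DMSO and the RA and PlaB groups, on linear axes from 0, with points for libraries and lines for the mean of 2. Spry4 is lowest in the RA groups, Gbx2 and Smad7 are lowest in PlaB, Zfp57 in SE KO RA, and Ndrg1 is lower with Dux KD under RA and higher with it under PlaB.

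With PlaB, 31 of the 44 had an ESC ratio of 2 or more, against 25.5% of all genes. PlaB was the lowest of the 13 groups for 18 of the 44. That count was not made over all genes, so nothing is read from it. Gbx2 was at 1.88 and 2.47 CPM, Pcyt1b at 7.36 and 8.37, Tfrc at 70.5 and 75.5 and Bicral at 19.01 and 19.3, each the lowest mean of that gene. Zfp57 was at 541 and 526 CPM, above both ESC libraries, Nt5e at 21.9 and 23.2 and Myc at 68.6 and 68.9. The mitochondrial share of counts was 1.40% and 1.56% in PlaB and 2.19% to 5.20% in the other groups. The trophectoderm markers summed to 511 and 544 CPM in PlaB and 70.8 and 71.7 in ESC. By group means, Krt8 (338 against 9.81 CPM), Krt18 (147 against 4.06) and Gata3 (4.09 against 0.0556) were higher in PlaB than in ESC. Tfap2c was lower in PlaB (36.7 against 57.1 CPM), and Cdx2 (0.651 against 0.143) and Elf5 (0.393 against 0.0296) stayed under 1 CPM. The 2C markers summed to 7965 and 8203 CPM in PlaB. The part of these in the levels was not tested.

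In Dux KD PlaB 29 of the 44 were higher than in PlaB, against 26.1% of all genes, and 4 were lower, against 28.8%, with a median log2 fold change of 2.02 against -0.14. Ndrg1 rose from 1.72 and 3.34 to 43.2 and 42.6 CPM (4.27 ± 0.24, edgeR adjusted p = 3.2e-15), Gbx2 to 24.1 and 24.8 CPM (3.68 ± 0.17, edgeR adjusted p = 3.5e-17) and Tgm3 from 0.537 and 0.103 to 7.58 and 7.55 CPM (4.75 ± 0.33, edgeR adjusted p = 4.9e-13). Lef1 (3.77 ± 0.30), Pfkfb3 (2.87 ± 0.19), Smad7 (2.01 ± 0.13) and Spry4 (1.93 ± 0.09) rose as well. In the same comparison 7 of 11 hypoxia genes and 10 of 17 glycolysis genes were higher, Ndrg1 and Pfkfb3 included. Those that fell were Nt5e (-1.69 ± 0.28), Myc, to 23.0 and 21.02 CPM (-1.45 ± 0.13), Zfp57, to 205 and 198 CPM (-1.21 ± 0.08), and Ccnd2 (-1.07 ± 0.18), the last lost without PlaB replicate 1 (-0.97) or with no low-count filter (-0.93). Islr2, Gm9242 and Gm5940 had 3 counts or fewer in each PlaB library and were at least 67.7-fold, 82.3-fold and 31.4-fold higher than that floor. Over 12296 genes that changed between PlaB and DMSO, Dux KD PlaB held a median of 0.114 of that change and the groups given no PlaB 0.0893 to 0.275. The trophectoderm markers summed to 123 and 131 CPM and the 2C markers to 4.88 and 4.98 CPM in Dux KD PlaB. The part of these in the results was not tested.

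In SE KO PlaB 26 of the 44 were higher than in PlaB, against 25.9% of all genes, and 1 was lower, against 26.1%, with a median of 1.48 against -0.07. Zic2 rose from 0.269 and 0.0514 to 2.48 and 2.10 CPM (3.92 ± 0.80, edgeR adjusted p = 9.2e-05), Gbx2 to 22.3 and 27.5 CPM (3.64 ± 0.16, edgeR adjusted p = 4.0e-17) and Smad7 from 31.4 and 35.3 to 190 and 188 CPM (2.63 ± 0.13, edgeR adjusted p = 5.2e-16). Ccnd2 (1.58 ± 0.15), Ndrg1 (1.55 ± 0.27) and Pfkfb3 (1.07 ± 0.20) rose by less, the last below the threshold with RLE scaling (0.95), library size only (0.95) or DESeq2 (0.95). Aire was the gene that fell, from 13.9 and 13.04 to 4.00 and 1.77 CPM (-2.10 ± 0.21, edgeR adjusted p = 5.9e-10), and without SE KO PlaB replicate 1 there were 2 lower genes. Islr2, Gm5940 and Gm9242 were at least 241-fold, 33.1-fold and 9.98-fold above the PlaB floor. SE KO PlaB held a median of 0.289 of the change between PlaB and DMSO, beside 0.275 in Dux KD RA, which was given no PlaB. From PlaB to SE KO PlaB the primitive endoderm markers went from 23.6 and 24.96 to 119 and 120 CPM, the trophectoderm markers to 180 and 278 and the 2C markers to 479 and 615, and the part of these in the result was not tested. This comparison and the one before share the PlaB libraries.

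In the libraries labelled Dux KD Zscan4 OE 8 of the 44 were higher than in Zscan4 OE, against 5.78% of all genes, and 6 were lower, against 5.35%, with a median of 0.35 against 0.01. With library size only, or with no low-count filter, 5 were higher. Tgm3 rose from 3.60 and 3.93 to 24.5 and 23.1 CPM (2.73 ± 0.22, edgeR adjusted p = 2.5e-10) and Ccnd2 from 5.20 and 5.97 to 16.8 and 18.1 CPM (1.72 ± 0.16, edgeR adjusted p = 5.3e-09). Crmp1 fell from 32.2 and 34.3 to 5.20 and 13.96 CPM (-1.73 ± 0.21, edgeR adjusted p = 5.4e-07) and Spry4 from 335 and 332 to 142 and 123 CPM (-1.25 ± 0.08). Lef1 (-1.42 ± 0.29) lost its call without Dux KD Zscan4 OE replicate 1 (-0.84) and Ndrg1 (-1.17 ± 0.20) without replicate 2 of that group (-0.81). Zic2, at 4.58 and 19.9 CPM, overlapped Zscan4 OE. The 2 libraries of this group differed by 26.1 chi-square per degree of freedom.

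Whether Dux KD or SE KO acted alike in different treatments was tested as the difference of 2 log2 fold changes, at the same threshold. The effect of Dux KD differed between PlaB and RA for 31 of the 44, against 52.2% of all genes, between the Zscan4 OE label and RA for 11, against 12.3%, and between PlaB and the Zscan4 OE label for 32, against 49.2%. The effect of SE KO differed between PlaB and RA for 24, against 49%. Dux KD PlaB and SE KO PlaB held medians of 0.114 and 0.289 of the change between PlaB and DMSO. With Dux KD, mean Duxf3 went from 9.78 to 0.0287 CPM under PlaB and from 2.63 to 0.716 CPM under RA. The depth of the knockdown thus differed by this gene. The part of these in the differences was not tested.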

How the data were processed

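Poly(A) RNA-seq was measured in 26 libraries, 2 in each of 13 groups. The authors deposited 1 table of raw counts per gene and library; the submitters' processing notes name FastQC, Trimmomatic, STAR, featureCounts, DESeq2 and mm10, and versions and the strand and multimapping settings are not given in the sources used here. The members and lists were chosen with earlier results of these data known. Counts were tested in R 4.3.3 with edgeR 4.0.16 (TMM scaling, filterByExpr, quasi-likelihood test, 1 model over all 26 libraries), and genes with a Benjamini-Hochberg adjusted p under 0.05 over all 20953 genes and a log2 fold change of at least 1 in size were called. Log2 fold changes are edgeR's. Alternatives were DESeq2 1.42.0, other scalings, no low-count filter, a replicate block, fits of 2 groups and leaving out each library. The fit was tested on simulated counts. The genes named were the 25 members with the largest smaller ratio, per comparison the 2 called lower and the 2 called higher with the largest change (non-overlapping libraries, mean log2 CPM not under 1), members that a list holds, and the 3 genes on either side of the threshold. The other members, and the calls of SE KO Dux OE against DuxR70A OE that this rule does not name, were added after their values were seen. The counts over the 44 include 1 member that is not reported here. Replicate numbers mark no stated pairing.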

Additional observations from a re-analysis of the deposited data

Results flagged for a closer look

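Some members were called in opposite directions by Dux KD, or by SE KO, in different treatments. In each the difference between the log2 fold changes passed edgeR's test of that difference (adjusted p of 1.6e-09 or less). For Dux KD under PlaB against Dux KD under RA, Ndrg1 changed by 4.27 against -2.08, a difference of 6.35 ± 0.30 (SE), and Nt5e by -1.69 against 2.26, a difference of -3.95 ± 0.38. Over the genes that changed between PlaB and DMSO, Dux KD PlaB held a median of 0.114 of that change and untreated ESC 0.142. With Dux KD, mean Duxf3 went from 9.78 to 0.0287 CPM under PlaB and from 2.63 to 0.716 CPM under RA. The part of these in the differences, here and in the next paragraph, was not tested.

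For Dux KD under PlaB against the libraries labelled Dux KD Zscan4 OE, the differences were 5.44 ± 0.31 for Ndrg1, 5.19 ± 0.41 for Lef1, 4.24 ± 0.43 for Zic5, 3.60 ± 0.26 for Bcl6b, a zinc finger repressor, 3.18 ± 0.12 for Spry4 and -2.79 ± 0.24 for Ccnd2, the 1 gene that was lower under PlaB and higher in the other. Zscan4c did not show the labelled overexpression in the second group.

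For SE KO under PlaB against SE KO under RA, Tfrc changed by 2.20 against -2.71, a difference of 4.92 ± 0.13, Smad7 by 2.63 against -1.01, a difference of 3.63 ± 0.18, and H2-M5 by 1.11 against -1.42, a difference of 2.53 ± 0.16. Of the 2 SE KO RA libraries 1 carries a WT genotype entry. SE KO PlaB held a median of 0.289 of the change between PlaB and DMSO, beside 0.275 in Dux KD RA. The part of this in the differences was not tested.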

How the results depend on the processing

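The number of genes past both ratios was 44 with 1 added to CPM, 63 with 0.5 and 16 with 5, 4 with a ratio of 3 (Gm46332, Soga3 and Tet2 among them), 50 with TMM and 49 with DESeq2 scaling (43 of the 44 in each), and 42 to 55 without 1 library. Members called higher in Dux KD Zscan4 OE against Zscan4 OE were 8, and 5 with library size only or with no low-count filter. Without 1 library, members called lower numbered 4 to 7 in SE KO RA against RA, with 4 without RA replicate 1 or SE KO RA replicate 1, and 1 to 2 in SE KO PlaB against PlaB. Of 64 tests of single genes, 50 kept their call under every alternative run, and 14 lost it under at least 1, in 27 of 640 values, 19 of them from leaving out a library, and 0 reversed. The cause was not tested. Same-numbered libraries deviated from their group means with r of -0.0473 to 0.00716, so the samples share only a number; with the replicate block, 3 members were higher in DuxR70A OE against Zscan4 OE in place of 2, 8 were lower in SE KO RA against RA in place of 7, and the other counts did not change. Scaling moved the median log2 fold change of all genes from -0.14 to -0.29 (RLE) or -0.33 (library size) in Dux KD PlaB, from -0.07 to -0.19 in SE KO PlaB, and from 0.02 to -0.12 (library size) in SE KO Dux OE against DuxR70A OE. Levels near 3 counts per library are not resolved at this depth.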
